A study of Drosophila melanogaster with 8 samples.

Results

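The transcripts examined here encode the proteins of the mitochondrial ribosome in Drosophila melanogaster S2 cells. Members were the genes whose only symbol in the platform annotation has the form mRpL or mRpS with a number, together with bonsai and tko, the fly names of the mitochondrial S15 and S12 proteins. The rule uses names and no measured values. It found 71 of the 11982 genes with a single symbol on the array, 44 with large-subunit names and 27 with small-subunit names. Double-stranded RNA (dsRNA) directed at GFP, a jellyfish gene that flies lack, served as the control, and dsRNA directed at DENR was the treatment. S2 is a line derived from embryonic blood cells (haemocytes), is labelled wildtype here, and is not a tissue. From each treatment, both total RNA and the RNA of the pooled 80S and polysome fractions, called ribosome-bound RNA below, were hybridised to Affymetrix arrays. The 4 groups, control total, DENR total, control ribosome-bound and DENR ribosome-bound, had 2 arrays each, which the design text calls biological replicates.

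Mitochondria keep a small genome that encodes core subunits of the respiratory chain and ATP synthase, and the mitochondrial ribosome (mitoribosome) translates only those messages. All of its proteins are encoded in the nucleus, translated on cytoplasmic ribosomes and imported, so that its small subunit, which decodes the message, and its large subunit, which joins amino acids, are assembled inside the organelle on mitochondrial ribosomal RNA. Many members descend from bacterial ribosomal proteins, while others were added in mitochondria. DENR, with its partner MCTS1, acts on cytoplasmic ribosomes, where it helps them to start again after a short upstream open reading frame. The ribosome-bound values below thus concern messages for mitoribosomal proteins on cytoplasmic ribosomes, not translation within mitochondria. Total RNA values give the level of a message. The ribosome-bound minus total difference sets its presence in the pooled fractions against that level, and does not count the ribosomes on it.

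All values are log2 array signals that the authors made with RMA, a method that in general scales arrays to each other, so that a difference between groups is relative to the other transcripts of the same RNA preparation. Levels of different probe sets are not compared with each other, apart from a rough reading of cell type markers as dim or brighter. Differences are given with the standard error (SE) of a limma fit to all 8 arrays, in which the 4 groups share 1 estimate of the spread. A gene was called where its limma p, adjusted by the Benjamini-Hochberg method over 10262 tested features, was under 0.05. All 71 members were bright enough to be tested, with means over the 8 arrays between 4.71 and 10.56. A single probe set represented 69 members, and mRpL47 and mRpS11 had 2. Of 75 gene symbols in RefSeq that fit the rule, mRpL53 and mRpS10 shared a probe set with another gene and were not counted, and mRpL34 and mRpL37 had no probe set of their own.

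The DENR transcript read 8.41 and 8.26 on the control ribosome-bound arrays and 5.40 and 4.46 after DENR dsRNA, a difference of -3.40 ± 0.25 (limma adjusted p = 0.000203). In total RNA it read 8.28 and 8.18 against 7.38 and 7.60, a difference of -0.74 ± 0.25 that was not called (limma adjusted p = 0.170). Of the 4 haemocyte marker genes called lower after DENR dsRNA in total RNA out of 9 tested (He, Hml, NimC1 and Sr-CI), He differed most, by -2.85. Over all features 0.702% were called lower there. In RNA from a whole culture, fewer cells with a transcript and less of it in each cell cannot be told apart. Markers of neurons (3 genes), germline (2), fat body (2), muscle (1) and gut (1) had means of at most 3.41, where tested features had means of at least 2.12. Genes of lamellocytes and crystal cells, which are other blood cell types, were mixed. atilla (2.50) and lz (1.38) were dim, and PPO3 (7.60), PPO2 (5.26) and PPO1 (4.94) were brighter. Of these, PPO3 was called lower after DENR dsRNA in total RNA, at -0.70. The part of cell type in the members' values was not tested. Along the axis that separated total from ribosome-bound arrays and held 65.8% of the variance, the first DENR total array stood nearer to the ribosome-bound arrays, at -9.01 against -27.3 to -35.1 for the other total arrays and 22.3 to 29.4 for the ribosome-bound ones. The members' differences and medians that rest on it are given with and without it. The counts of members by p in each comparison use all 8 arrays, since a fit without it leaves 1 array in its group.

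Messages for mitoribosomal proteins were compared first between ribosome-bound and total RNA of control cells. In this comparison 20 of 71 members were lower in ribosome-bound RNA (28.2%) and 7 were higher (9.86%), while 44 were not called. Over all 10262 features 11.0% were called lower and 18.7% higher, and among the 5263 features within the members' range of signal 15.5% were lower and 26.0% higher. The median difference of the members was -0.25, against -0.04 for all features and 0.07 for those of like signal. In all, 51 of 71 members lay below 0. On the arrays themselves, both ribosome-bound values lay below both total values for 43 members, where 33.9% of all features did so, and above them for 17, where 31.3% did. With each array left out in turn, the members' median ran from -0.34 to -0.22.

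The most ribosome-enriched members of the small subunit were mRpS5 and mRpS7, both counterparts of bacterial proteins, of which S7 organises the head of the subunit in bacteria. mRpS5 read 4.49 and 3.89 in control total RNA and 5.51 and 5.41 in control ribosome-bound RNA. It also read 4.05 and 3.71 in total RNA and 5.51 and 5.14 in ribosome-bound RNA of DENR-treated cells. All 4 ribosome-bound arrays were thus above all 4 total arrays, although the total arrays of control cells lay far apart. The difference was 1.27 ± 0.21 in control cells, 2.41-fold (limma adjusted p = 0.00192). mRpS7 read 8.15 and 7.92 in control total RNA and 8.91 and 8.88 in control ribosome-bound RNA, a difference of 0.86 ± 0.14 (limma adjusted p = 0.0018). Its values after DENR dsRNA, 8.37 and 8.12 in total and 8.85 and 8.81 in ribosome-bound RNA, were apart in the same direction.

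In the large subunit 5 members were higher in ribosome-bound RNA. mRpL33, which has a bacterial counterpart among the smallest ribosomal proteins, read 8.16 and 8.19 in control total and 9.44 and 9.41 in control ribosome-bound RNA. The arrays of each group lay close together and the difference was 1.25 ± 0.15, 2.37-fold (limma adjusted p = 0.000286), the smallest adjusted p of any member. mRpL35, also of bacterial descent, read 5.30 and 5.26 against 6.07 and 5.98, higher by 0.74 ± 0.13 (limma adjusted p = 0.00199). mRpL55 and mRpL50 have no bacterial counterpart and belong to the proteins added in mitochondria. mRpL55 read 8.59 and 8.69 in total and 9.24 and 9.43 in ribosome-bound RNA, and was higher by 0.70 ± 0.14 (limma adjusted p = 0.00373). mRpL50 read 6.38 and 6.34 against 6.94 and 6.92, higher by 0.57 ± 0.13 (limma adjusted p = 0.00747). The fifth was mRpL13, the counterpart of an early-assembling bacterial protein, at 0.50 ± 0.13 (limma adjusted p = 0.016). The array values of mRpS5, mRpL33, mRpS7, mRpL55 and mRpL50 are plotted beside those of the most depleted members.

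**Figure D1:**
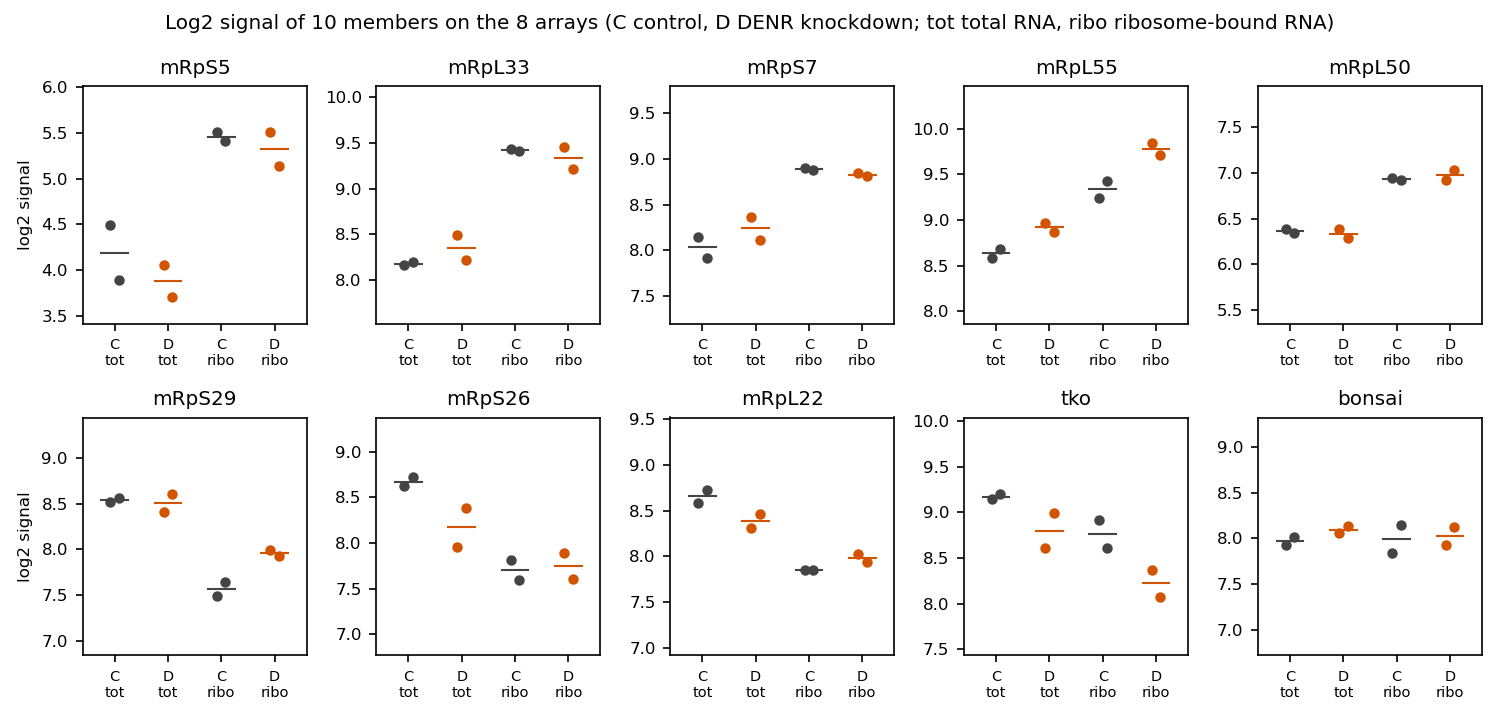
Log2 signal of 10 members on each of the 8 arrays. Points are single arrays, horizontal lines are means of the 2 arrays of a group, control in grey and DENR dsRNA in orange, and every panel spans the same range of log2 units. The top row holds members higher in ribosome-bound than in total RNA, led by mRpS5 (1.27) and mRpL33 (1.25) in control cells. The bottom row holds the lower members mRpS29 (-0.98), mRpS26 (-0.97) and mRpL22 (-0.81), with tko (-0.41) and bonsai (0.02), which were not called.

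Among the depleted members, the largest differences were in the small subunit. mRpS29 is the fly counterpart of mammalian DAP3, a GTP-binding protein of the small subunit that in mammals is also linked to cell death. It read 8.52 and 8.56 in control total RNA and 7.48 and 7.64 in control ribosome-bound RNA, lower by 1.97-fold (-0.98 ± 0.13, limma adjusted p = 0.000658). mRpS26, a mitochondrial addition, read 8.62 and 8.72 against 7.82 and 7.59, lower by 1.96-fold (-0.97 ± 0.18, limma adjusted p = 0.00269). mRpS22, another mitochondrial addition, read 8.89 and 8.94 against 8.19 and 8.17 (-0.73 ± 0.14, limma adjusted p = 0.00328). The total and ribosome-bound arrays of control cells did not overlap for any of these 3 genes. The other small-subunit members called lower were mRpS16, mRpS28, mRpS34, mRpS6 and mRpS35, with differences from -0.63 to -0.41.

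In the large subunit 12 members were lower in ribosome-bound RNA of control cells. mRpL22, whose bacterial counterpart lines the tunnel through which the new chain leaves the ribosome, read 8.59 and 8.73 in total RNA and 7.85 on both ribosome-bound arrays. The difference was -0.81 ± 0.13 (limma adjusted p = 0.00154). mRpL27, whose bacterial counterpart reaches the site where peptide bonds form, read 8.73 and 8.97 against 8.17 and 8.07 (-0.73 ± 0.19, limma adjusted p = 0.0167). mRpL45 lies at the tunnel exit in mammals, where it contacts the inner membrane. It read 8.22 and 8.07 against 7.44 and 7.46 (-0.69 ± 0.14, limma adjusted p = 0.00476). The remaining 9 were mRpL46, mRpL36, mRpL39, mRpL2, mRpL10, mRpL43, mRpL4, mRpL3 and mRpL30, from -0.68 to -0.41. Proteins of quite different position were thus among the depleted members, from mRpL2 and mRpL3, whose bacterial counterparts sit in the core of the large subunit, to mitochondrial additions such as mRpL39 and mRpL46.

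Large- and small-subunit members had similar values in control cells. The median ribosome-bound minus total difference was -0.26 over the 44 large-subunit members, of which 5 were called higher and 12 lower, and -0.25 over the 27 small-subunit members, of which 2 were higher and 8 lower. In mammalian structures the proteins named S30 and S18A lie in the large subunit. With mRpS30 and mRpS18A moved there, a grouping added after the values were seen, the medians were again -0.26 and -0.25. Of the 45 members with a bacterial counterpart, 5 were higher and 11 lower, with a median of -0.18. Of the 26 without one, 2 were higher and 9 lower, with a median of -0.29, and 24 of the 26 lay below 0.

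After DENR dsRNA fewer members were called between the fractions. In these cells 6 of 71 members were higher in ribosome-bound RNA (8.45%), where 9.13% of all features were, and 2 were lower (2.82%), where 5.85% of all features were. The 6 were mRpS5 (1.44 ± 0.21, 2.72-fold, limma adjusted p = 0.00204), mRpL33 (0.98 ± 0.15), mRpL55 (0.85 ± 0.14), mRpL50 (0.64 ± 0.13), mRpS7 (0.59 ± 0.14) and mRpL35 (0.48 ± 0.13). All 6 were also higher in control cells, and without the first DENR total array their differences ran from 0.54 (mRpL35) to 1.62 (mRpS5). The 2 lower members were mRpS29 (-0.55 ± 0.13, limma adjusted p = 0.0224) and mRpS34 (-0.49 ± 0.13, limma adjusted p = 0.0335), a mitochondrial addition of the small subunit, and both were lower in control cells as well. mRpS29 read 8.41 and 8.60 in total RNA and 8.00 and 7.92 in ribosome-bound RNA of these cells, and mRpS34 read 8.22 and 8.41 against 7.82 and 7.83. The fractions did not overlap for either gene, and without the first DENR total array the differences were -0.64 and -0.59. With each array left out in turn, mRpS29 ran from -0.64 to -0.45 and mRpS34 from -0.59 to -0.40, and neither call held under every omission. In the other settings mRpS29 was called in 11 of 11 and mRpS34 in 7 of 11. The median over all members was -0.04, against -0.02 for all features. The counts of calls above use both DENR total arrays. Without the first DENR total array the members' median was -0.15, against -0.05 for all features. Then 52 of 71 members lay below 0, as did 5687 of 10262 features. Both ribosome-bound arrays lay below the remaining total array for 42 members (45.6% of all features) and above it for 13 (36.9%). With each array left out in turn, the members' median ran from -0.15 to 0.05.

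**Figure D2:**
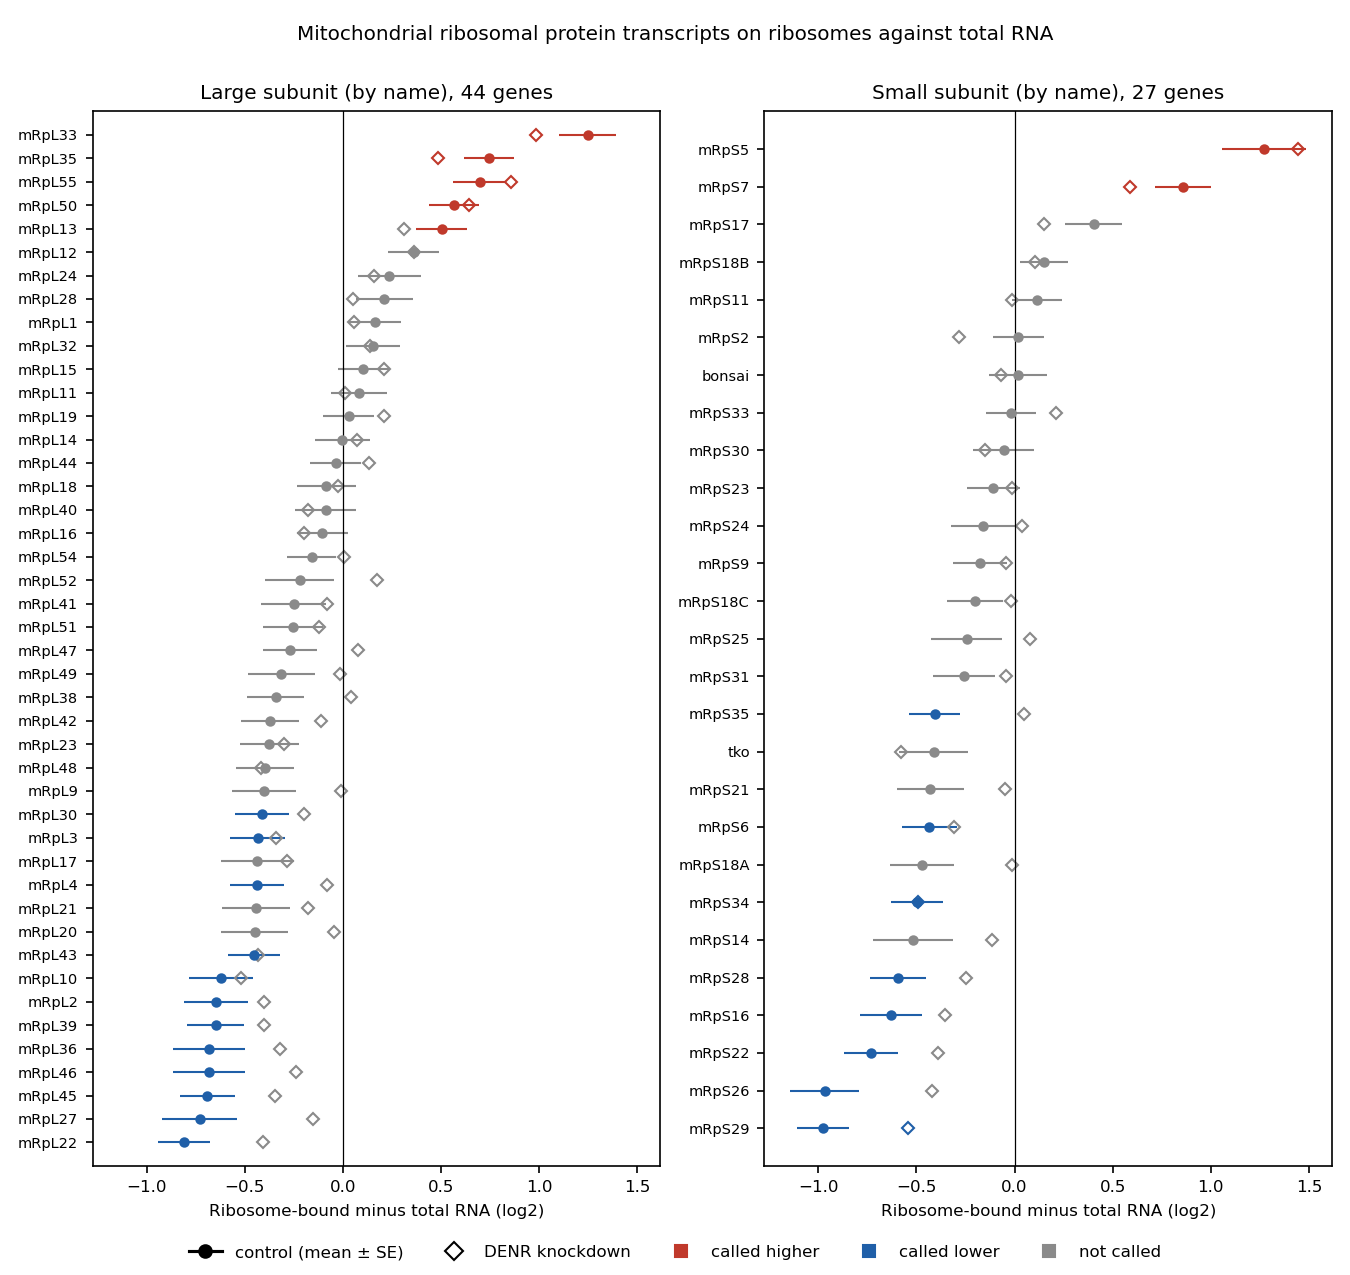
Ribosome-bound minus total RNA (log2) for all 71 members, ordered within each subunit by the difference in control cells. Filled circles with bars are control cells (difference ± SE), open diamonds are cells treated with DENR dsRNA, and colour shows the call in each. In both panels a few members lie to the right, up to 1.25 for mRpL33 and 1.27 for mRpS5, and a longer group lies to the left, down to -0.81 for mRpL22 and -0.98 for mRpS29.

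Across the 71 members the fraction differences of control and DENR-treated cells, which come from separate arrays, ran in parallel (Pearson r = 0.89, Spearman rho = 0.83, and 0.92 and 0.88 without the first DENR total array). The points share probe sets, and each array contributes to all of them, so this is a description without a test. No member was called in opposite directions. Of the 20 members lower in control cells, 18 were not called after DENR dsRNA, but the difference between the treatments was itself called for none of the 71, as given below.

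In total RNA, no member was called after DENR dsRNA. Among all features 0.877% were called higher and 0.702% lower. Without adjustment, 1 member was higher and 11 were lower at p under 0.05, where 11.6% of all features were higher and 5.99% lower. These counts include the first DENR total array, whose weight is given below. The members' median was -0.15, against 0.02 for all features, and 51 of 71 lay below 0. Both DENR arrays lay below both control arrays for 33 members, where 21.5% of all features did so, and above them for 11, where 24.5% did. This lower position rested mostly on 1 array: the median was -0.04 without the first DENR total array and -0.26 without the second. Without the first, 43 of 71 members lay below 0, as did 4715 of 10262 features. The remaining DENR array then lay below both controls for 35 members (30.6% of all features) and above them for 23 (36.8%). The unadjusted 95% interval of a member's difference extended to either side by 0.32 in the median, and a call needed a larger difference than that, since none of the values up to -0.57 passed.

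The small-subunit members with the smallest p in total RNA were mRpS28 and mRpS26. mRpS28, known in mammalian structures as the counterpart of bacterial S1, read 7.55 and 7.60 in control and 6.91 and 7.10 in DENR total RNA. The arrays did not overlap, but the difference of -0.57 ± 0.14 was not called (limma adjusted p = 0.0858). mRpS26 read 8.62 and 8.72 against 7.96 and 8.38, a difference of -0.50 ± 0.18 (limma adjusted p = 0.181). mRpL39 of the large subunit read 7.97 and 7.92 against 7.45 and 7.71 (-0.37 ± 0.14, limma adjusted p = 0.234). For all 3 genes the first DENR array was the lower one. Without it the differences were -0.48 for mRpS28, -0.29 for mRpS26 and -0.24 for mRpL39.

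In the other direction, mRpL35 read 5.30 and 5.26 in control total RNA and 5.75 and 5.64 after DENR dsRNA, a difference of 0.42 ± 0.13 that was not called (limma adjusted p = 0.134). mRpL55 differed by 0.28 ± 0.14 and mRpL11, whose bacterial counterpart lies at the base of the stalk that binds elongation factors, by 0.24 ± 0.15. Each of the 3 had both DENR arrays above both control arrays, and without the first DENR array the values were 0.36, 0.23 and 0.33. By subunit, the median was -0.12 over the large-subunit members and -0.22 over the small-subunit ones, and without the first DENR array -0.03 and -0.10.

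In ribosome-bound RNA, again no member was called after DENR dsRNA, where 0.653% of all features were called higher and 0.692% lower. Without adjustment, 3 members were higher and 4 lower at p under 0.05, where 6.38% and 6.77% of all features were. The median was 0.03, against 0.00 for all features, with 0.05 over the large-subunit and -0.03 over the small-subunit members. It changed sign with single arrays left out, from -0.04 to 0.10. Both DENR arrays were above both control arrays for 16 members and below them for 16, where 23.3% and 23.8% of all features were.

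tko, whose bacterial counterpart S12 guards decoding accuracy and whose mutation makes flies seize after a mechanical shock, had the largest negative value in that comparison. It read 8.91 and 8.61 on the control ribosome-bound arrays and 8.37 and 8.08 on the DENR ones, which did not overlap. The difference was -0.54 ± 0.18 and was not called (limma adjusted p = 0.215). Its total RNA values, 9.14 and 9.20 against 8.61 and 8.99, differed by -0.37 ± 0.18 (limma adjusted p = 0.305), and by -0.18 without the first DENR array. Between the fractions tko differed by -0.41 ± 0.18 in control cells (limma adjusted p = 0.107) and by -0.58 ± 0.18 after DENR dsRNA (limma adjusted p = 0.0538), neither called. Without the first DENR total array the latter was -0.77 and was called (limma adjusted p = 0.0238), as it was with the brightest 40% of features, quantile normalization within each fraction or a trended prior, at -0.55 to -0.58 (limma adjusted p from 0.024 to 0.0483). Over all settings its limma adjusted p ran from 0.00811 to 0.306.

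mRpS17, the counterpart of a bacterial protein that binds ribosomal RNA early in assembly, read 8.17 and 7.94 in control and 7.68 and 7.44 in DENR ribosome-bound RNA (-0.50 ± 0.14, limma adjusted p = 0.162). mRpL16, which in bacteria sits close to the transfer RNAs, read 8.63 and 8.53 against 8.30 and 8.18 (-0.34 ± 0.13, limma adjusted p = 0.283). Both genes had all DENR arrays below all control arrays within the fraction. The 3 members with the smallest p in the other direction were mRpL55, mRpS29 and mRpL27. mRpL55 read 9.24 and 9.43 in control and 9.84 and 9.71 in DENR ribosome-bound RNA (0.44 ± 0.14, limma adjusted p = 0.183). mRpS29 read 7.48 and 7.64 against 8.00 and 7.92 (0.40 ± 0.13, limma adjusted p = 0.231). mRpL27 read 8.17 and 8.07 against 8.74 and 8.41 (0.46 ± 0.19, limma adjusted p = 0.34), and none of the 3 was called although their arrays did not overlap.

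**Figure D3:**
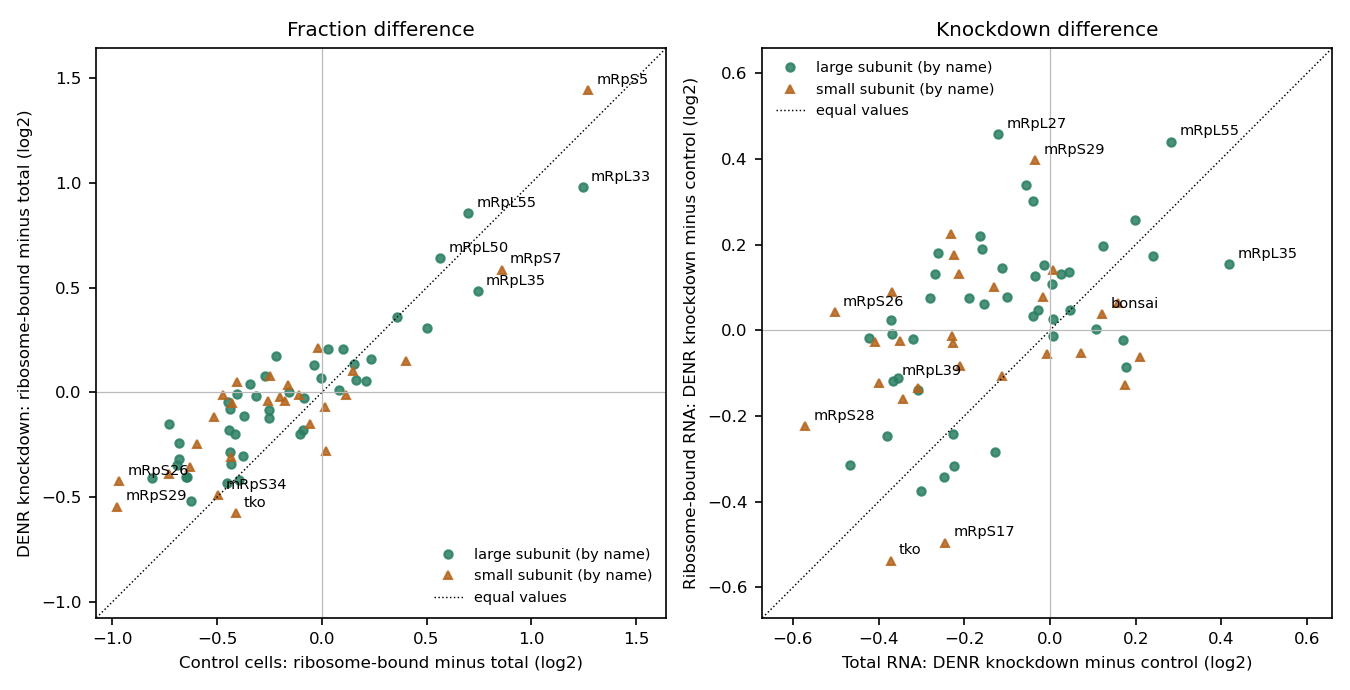
The 71 members as points, large subunit as circles and small subunit as triangles, with a dotted line of equal values. The left panel sets the ribosome-bound minus total difference (log2) of DENR-treated cells against that of control cells, and the points rise together from mRpS29 (-0.98 and -0.55) to mRpS5 (1.27 and 1.44), with 52 of 71 above the dotted line. The right panel sets the DENR minus control difference (log2) in ribosome-bound RNA against that in total RNA, and its points spread widely around 0, with tko (-0.54 against -0.37) and mRpL55 (0.44 against 0.28) toward opposite corners.

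The DENR difference was set side by side in the 2 fractions, which use separate arrays. Across the 71 members the values of the fractions were loosely related (Pearson r = 0.43, Spearman rho = 0.43, and 0.54 and 0.55 without the first DENR total array, a description without a test). In 12 members both DENR arrays lay below both controls in each fraction, where 7.19% of all features did so. These were mRpL2, mRpL16, mRpL24, mRpL28, mRpL32, mRpL40, mRpL51, mRpS6, mRpS17, mRpS18C, mRpS28 and tko. In mRpL35 and mRpL55 they lay above in both, where 8.97% of all features did. In 4 members, mRpL22, mRpL47, mRpS22 and mRpS35, the DENR arrays lay below in total and above in ribosome-bound RNA, where 2.90% of all features did, and mRpS2 showed the opposite arrangement, where 3.19% did. With the second DENR total array alone, these 4 arrangements held for 12, 9, 4 and 1 members, where 11.3%, 13.2%, 3.79% and 4.54% of all features showed them.

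The interaction term asks whether DENR dsRNA changed the ribosome-bound minus total difference. It was called for 0 of 71 members and for 0% of all features by limma. At an unadjusted p under 0.05 it was higher after DENR dsRNA for 2 members and lower for 0, where 3.24% of all features were higher and 6.71% lower. The members' median was 0.16, against -0.02 for all features and -0.10 for features of like signal, and 52 of 71 lay above 0. It was 0.16 over the large and 0.18 over the small subunit. Without the first DENR total array the median was 0.09, with 0.05 over the large and 0.09 over the small subunit. For all features it was -0.03. Then 46 of 71 members lay above 0, as did 4666 of 10262 features.

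mRpS35, a mitochondrial addition of the small subunit, had the smallest interaction p of any member. Its arrays read 8.43 and 8.43 in control total, 8.17 and 8.22 in DENR total, 8.04 and 8.01 in control ribosome-bound and 8.15 and 8.34 in DENR ribosome-bound RNA. DENR arrays were thus below control in one fraction and above it in the other, and the interaction was 0.46 ± 0.18 (limma adjusted p = 0.48). mRpS29 followed at 0.43 ± 0.19 (limma adjusted p = 0.499) and mRpS26 at 0.54 ± 0.25 (limma adjusted p = 0.499). On the other side mRpS2, a counterpart of bacterial S2, had -0.30 ± 0.18 (limma adjusted p = 0.558), mRpL35 had -0.26 ± 0.18 and mRpS7 had -0.27 ± 0.20. None of these 6 members was called. Without the first DENR total array the interaction was 0.43 for mRpS35, 0.34 for mRpS29, 0.33 for mRpS26, -0.39 for mRpS2, -0.21 for mRpL35 and -0.15 for mRpS7.

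bonsai, first known from small flies and the counterpart of bacterial S15, was nearly level across the arrays. It read 7.93 and 8.02 in control total, 8.06 and 8.14 in DENR total, 7.84 and 8.15 in control ribosome-bound and 7.93 and 8.13 in DENR ribosome-bound RNA. The fraction difference in control cells was 0.02 ± 0.15, with a 95% interval from -0.32 to 0.35, and the DENR difference in total RNA was 0.12 ± 0.15, from -0.21 to 0.45. The latter was 0.16 without the first DENR array.

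The S18 protein has 3 versions in mitochondria, encoded by mRpS18A, mRpS18B and mRpS18C. mRpS18A read 9.55 and 9.67 in control total RNA and 9.20 and 9.08 in control ribosome-bound RNA, a difference of -0.47 ± 0.16 (limma adjusted p = 0.0545). The difference was -0.20 ± 0.14 for mRpS18C and 0.15 ± 0.12 for mRpS18B. None of the 3 was called, and differences among them were not tested. mRpS18A was called in 6 of 11 other settings and with either DENR total array left out, and over all settings its limma adjusted p ran from 0.0126 to 0.237. In total RNA the DENR difference was -0.37 ± 0.16 for mRpS18A, -0.34 ± 0.14 for mRpS18C and -0.01 ± 0.12 for mRpS18B. Without the first DENR array these were -0.17, -0.21 and 0.01.

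The 2 members with a second probe set gave partly different values. For mRpL47, the counterpart of bacterial L29, the ribosome-bound minus total difference of control cells was -0.27 by the brighter probe set and -0.53 by the other. After DENR dsRNA it was 0.08 and -0.32. For mRpS11 the DENR difference in total RNA was 0.07 by the brighter and -0.16 by the other probe set. Neither gene was called by the brighter probe set, and the other sets were not tested on their own. Without the first DENR total array the values by the brighter set were -0.04 for the fraction difference of mRpL47 after DENR dsRNA and 0.11 for the DENR difference of mRpS11.

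Other groups of genes for mitochondrial gene expression were read in the same fit. Between the fractions of control cells 18.7% of all features were called higher and 11.0% lower. Of 10 mitochondrial translation factors, 2 were higher and 2 lower in ribosome-bound than in total RNA of control cells. mEFTs, the exchange factor of elongation factor Tu, was higher by 0.90, and mRRF1, a ribosome recycling factor, by 0.60. The translation factors mEFTu1 and mIF2, which deliver aminoacyl and initiator transfer RNA, were lower, at -0.67 and -0.61. Of 15 mitochondrial aminoacyl-tRNA synthetases, 5 were higher and 2 lower, with AspRS-m at 1.52, CysRS-m at 1.41, PheRS-m at -0.71 and LeuRS-m at -0.62. Of 13 genes of mitochondrial transcription and RNA processing, 2 were lower, mldr (-1.03) and MTPAP (-0.80), and none was higher. Their medians, -0.19, -0.13 and -0.06, stood beside -0.25 for the ribosomal proteins.

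After DENR dsRNA 1 gene of these 3 lists was called in total RNA, CysRS-m, which was higher by 0.93 (limma adjusted p = 0.0205), and none in ribosome-bound RNA. Over all features 0.877% were higher and 0.702% lower in total RNA, and 0.653% and 0.692% in ribosome-bound RNA. Nuclear genes of oxidative phosphorylation, the chain whose mitochondrial subunits the mitoribosome makes, gave 64 tested genes. In ribosome-bound RNA of control cells 6 were higher and 3 lower, where 18.7% and 11.0% of all features were. Their median was -0.03. After DENR dsRNA 1 of the 64, ATPsynepsilonL, was called higher in both total (0.77) and ribosome-bound RNA (1.17). Of 34 cytoplasmic ribosomal protein genes with a probe set of their own, 1 was lower between the fractions of control cells, RpS18 at -0.80, and their median was -0.05. No mitochondrially encoded gene was among the named genes of the array.

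**Figure D4:**
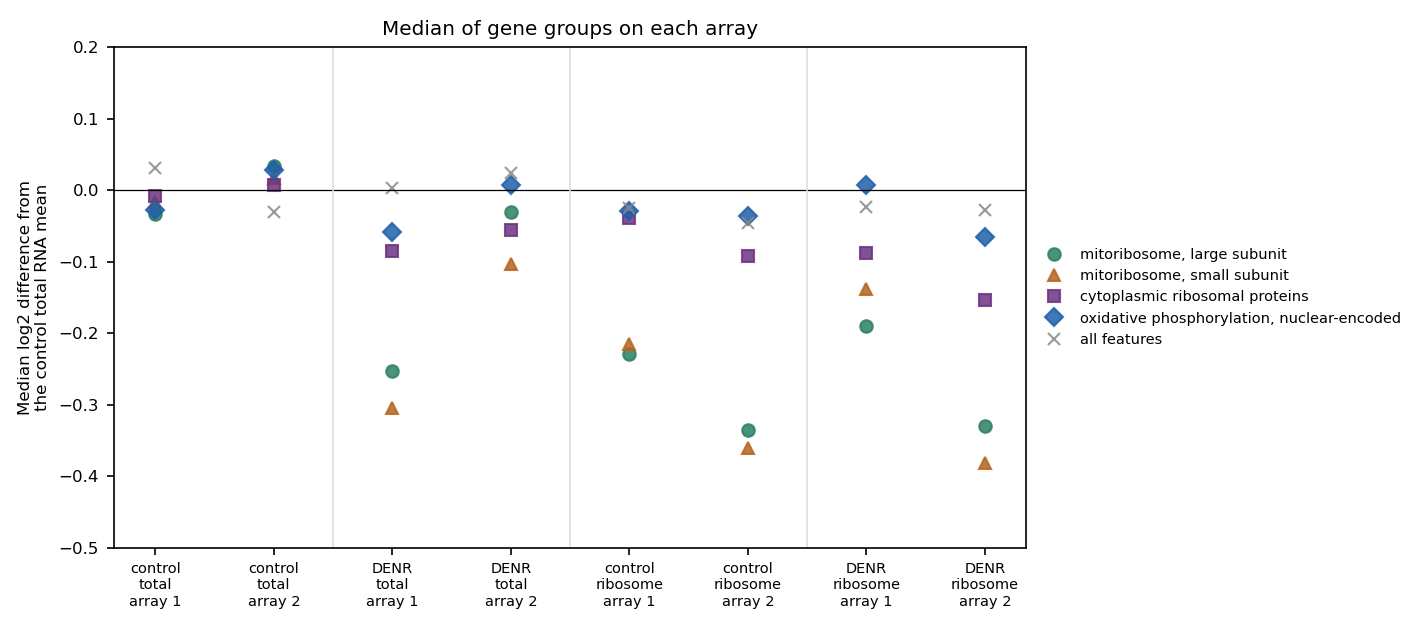
Median log2 difference of each gene group from the control total mean on each of the 8 arrays. Both mitoribosomal subunits lie below the other groups on the 4 ribosome-bound arrays, with the members together at -0.22 and -0.34 in control and -0.16 and -0.37 in DENR-treated cells. On the first DENR total array the members are at -0.26, and on the second at -0.04.

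The plot of medians by array shows where the members stood within each preparation. Their median on the control ribosome-bound arrays was -0.22 and -0.34 relative to the control total mean, and on the DENR ribosome-bound arrays -0.16 and -0.37. The first DENR total array, at -0.26, lay among these ribosome-bound values, and the second, at -0.04, lay near the control total arrays at -0.02 and 0.02. The 2 arrays of the DENR total group thus differed by more than the median DENR difference of -0.15. Whether the position of that array reflects the treatment or the preparation was not tested.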

How the data were processed

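The authors deposited 1 log2 signal for each probe set and array, and per the submitters' processing notes RMA was used. Its version and settings, and the genome build, are not given in the sources used here. Biotinylated cRNA was prepared from Trizol-extracted RNA, per the labels' protocols. Probe sets were named through the platform annotation, with symbols updated by gene identifier from RefSeq. The probe set with the highest mean over the 8 arrays stood for a gene, and the brightest 60% of 17104 features (10262, mean at least 2.12) were tested. Group means were fitted with limma 3.58.1 in R 4.3.3 without covariates, with 4 residual and 5.93 prior degrees of freedom and two-sided p-values. The code was tested on simulated data. No detection calls were used. With 2 arrays a group, precision is limited by the array number.

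Members and gene lists were chosen with earlier results of these data known. Named were bonsai, tko, the S18 paralogs, members with 2 probe sets and, per comparison, up to 5 called members of largest difference in each direction, or the 3 of smallest p where none was called. Other called members are named to complete the counts, and mRpL45, mRpL50 and mRpL13 and the genes of shared array order were singled out after their values were seen. Promoter and protein sequences were not used here, and a comparison of promoter motifs and protein features was not run. Alternatives were replicate blocks, no filter or the brightest 40%, the mean over probe sets, 3 other normalizations, a trended prior, a fit to the compared arrays alone, and the omission of each array in turn. Figures were drawn with matplotlib 3.10.9.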

Additional observations from a re-analysis of the deposited data

How the results depend on the processing

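The 2 replicates of a group limit most values here. Leaving out each array in turn gave between 11 and 29 calls between the fractions of control cells and between 3 and 11 after DENR dsRNA. The member median ran from -0.26 to -0.037 for the DENR difference in total RNA, from -0.041 to 0.097 in the ribosome-bound fraction, and from -0.15 to 0.050 for the fraction difference after DENR dsRNA. The large minus small subunit median ran from 0.030 to 0.11 in total RNA, from 0.046 to 0.15 in ribosome-bound RNA, from -0.10 to 0.00090 for the interaction, and from -0.088 to 0.026 and from -0.045 to 0.035 between the fractions of control and DENR-treated cells. Of the members called in control cells, 6 of 7 higher ones (not mRpL13) and 5 of 20 lower ones (mRpL22, mRpL45, mRpS22, mRpS26 and mRpS29) were called under every alternative and with every array left out, as were mRpL33, mRpL55 and mRpS5 after DENR dsRNA. The labels do not say that replicate numbers pair the samples. With a replicate block 22 members were called in control cells, 6 after DENR dsRNA and 0 in the other comparisons, and 21, 6 and 0 where each culture was a random block. Deviations of same-numbered arrays correlated at 0.38 between the total groups, at 0.27 between the ribosome-bound groups, and at -0.20 and -0.31 between the fractions of control and DENR-treated cells. Across treatments they correlated at -0.22 (control total with DENR ribosome-bound) and -0.38 (DENR total with control ribosome-bound). With each culture as a random block, the correlation within a culture was estimated at -0.26. A crossed replicate block, added after seeing the data, called 2 members for the DENR difference in total RNA, 1 in the ribosome-bound fraction, 0 for the interaction, 41 in control and 18 in DENR-treated cells. Calls over all features, under these blocks or with an array left out, are not set beside the members' counts. Neither the counts under the blocks nor the ranges over left-out arrays thus tell the members from other genes. For these changes the cause was not tested.

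Some uncalled values near 0 changed sign. With array medians centred, the value was 0.038 for mRpS18B (DENR difference, total RNA) and, for the fraction difference after DENR dsRNA, 0.031 for mRpS18A, 0.024 for mRpS18C and 0.034 for mRpS11. With quantile normalization within each fraction, these last 3 were 0.018, 0.0039 and 0.0098, the DENR difference in ribosome-bound RNA was 0.0055 for mRpS18B and 0.0056 for mRpS11, the interaction of mRpS18B was 0.011, and the control fraction difference of bonsai was -0.00050. With cyclic loess the last was -0.0055, and mRpS18A, mRpS18C and mRpS11 were at 0.022, 0.0074 and 0.015 after DENR dsRNA. With the mean over probe sets, mRpS11 had -0.043 for the DENR difference in total RNA and -0.0094 for the control fraction difference, and mRpL47 had -0.12 for the fraction difference after DENR dsRNA. With each array left out, the DENR difference ran from -0.038 to 0.022 for mRpS18B in total RNA. In the ribosome-bound fraction it ran from -0.12 to 0.19 for bonsai, from -0.035 to 0.21 for mRpS18A and from -0.12 to 0.014 for mRpS11. The interaction ran from -0.24 to 0.072 for bonsai and from -0.36 to 0.025 for tko, and the control fraction difference of bonsai from -0.14 to 0.17. The fraction difference after DENR dsRNA ran from -0.16 to 0.029 for bonsai, from -0.21 to 0.18 for mRpS18A, from -0.15 to 0.11 for mRpS18C, from -0.045 to 0.20 for mRpL47 and from -0.078 to 0.056 for mRpS11.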
